A study of Mus musculus with 5 samples.

Results

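FB-dominant spots are the places on a Visium heart section in which the fibroblast (FB) score was the highest of 11 cell type scores and at least 1000 unique molecular identifiers (UMIs) were captured. The scores, which run from 0 to 100% and add up to 100% in each spot, came with the data and estimate what a spot is made of. In the 2 sham sections the rule found 388 FB-dominant spots among 1504 spots, 122 of them in the sham day 3 section and 266 in the sham day 7 section. The other 1115 sham spots that reached the UMI minimum are called the other spots. The whole series held 3364 spots.

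The animals were wild-type C57BL/6 mice that had sham surgery or myocardial infarction (MI) on postnatal day 1, MI being made by ligation of the left anterior descending coronary artery. Transverse sections were taken 3 or 7 days after surgery, 200 µm under the suture, or at the same height in sham hearts. There was 1 sham section and 1 MI section at day 3, and 1 sham section and 2 MI sections at day 7. Each Visium spot takes up RNA from a patch of tissue with several cells, so its values are those of a region and a share is a share of spots.

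Cardiac fibroblasts lie between the muscle cells and around the vessels, and they make most of the collagen and other matrix of the heart. In the newborn heart this matrix is laid down as the muscle changes from growth by division to growth by enlargement. Fibroblasts are usually recognised by fibrillar collagens, by small proteoglycans such as decorin, and by the receptor for platelet-derived growth factor, Pdgfra. Smooth muscle cells and valve cells also make matrix, and activated fibroblasts (myofibroblasts) share contractile genes with smooth muscle.

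The FB score reached a median of 70.5% in the FB-dominant spots of sham day 3, with a lowest value of 27.5% and a highest of 98.9%. At sham day 7 the median was 77.9%, between 22.2% and 100%. The score passed 90% in 24 and 87 spots and stayed under 50% in 33 and 46 spots of day 3 and day 7, so no type reached 50% in those spots. The smallest lead over the next type was 0.427 points at day 3 and 0.252 points at day 7, and the closest spots outside fell short of the leading type by 1.55 and 0.417 points. Within 5 points of the limit there were 8 spots inside and 9 outside at day 3, and 11 inside and 13 outside at day 7. No spot with FB as its leading type was lost to the UMI minimum, the lowest totals inside being 7424 and 10772 UMIs.

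Depth was similar inside and outside. FB-dominant spots had a median of 18977 UMIs at day 3 and 22129 at day 7, against 21471 and 23126 in the other spots. The median number of detected genes was 4828.5 and 4994.5, against 4858 and 4851.5. Mitochondrial transcripts made up 12.9% and 14.7% of the values of FB-dominant spots and 16.5% and 16.1% of those of the other spots. Between 3 and 449 spot barcodes were shared by any pair of sections, which are positions of the capture grid. The sham day 3 section listed the X-linked transcript Xist at 41.7 counts per 1000000 (CPM) in FB-dominant spots and Ddx3y, a Y-linked gene, at 0, while the sham day 7 section gave Ddx3y at 32.0 CPM and had no entry for Xist. Day of the sham sections can therefore not be told apart from the animal or its sex. MI day 7 replicate 1 also listed Xist, at 54.0 CPM in FB-dominant spots, and had no entry for Ddx3y. MI day 3 and MI day 7 replicate 2 listed Ddx3y, at 31.7 and 37.4 CPM, and not Xist. The fits over sections had no term for sex. The sham day 3 table held raw UMI counts and the other 4 tables held depth-corrected counts, so every spot was scaled to CPM over the 13711 genes present in all tables, and spots were averaged per section. The kind of table therefore also differed between the sham days.

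The label was checked against the 4 markers Col1a1, Col3a1, Dcn and Pdgfra. All were higher in FB-dominant than in other spots of both sections, by between 1.79-fold and 2.30-fold of the mean, and the ranges of single spots overlapped widely. As the FB score was itself computed from the expression values, every difference between FB-dominant and other spots is a description, and no test was made. Col1a1, a chain of type I collagen (GRCm38 chromosome 11, 94936224 to 94953042), ran from 178 to 3375 CPM in the FB-dominant spots of day 3, with a median of 930 and a mean of 1060, against a median of 476 and a mean of 579 in the other spots. At day 7 its FB-dominant spots ran from 89.0 to 3484 CPM with a mean of 1078, against a mean of 469. The highest value of Col1a1 in sham day 3, 5239 CPM, was in a spot that was not FB-dominant.

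Col3a1, the chain of type III collagen (chromosome 1, 45311538 to 45349706), had a mean of 2668 CPM in FB-dominant and 1401 in other spots at day 3, and of 3237 and 1453 at day 7. Dcn, which encodes decorin, a proteoglycan that binds collagen fibrils (chromosome 10, 97479609 to 97518143), had means of 653 against 364 CPM at day 3 and 829 against 463 at day 7. Pdgfra (chromosome 5, 75152292 to 75198215) was sparse. Its mean was 54.9 against 27.8 CPM at day 3 and 54.1 against 27.9 at day 7, and it was above 0 in 60.7% and 65.4% of FB-dominant spots, compared with 39.9% and 45.0% of other spots. Counting error was small beside these differences. In the raw counts of sham day 3, Col1a1 had 2419 UMIs in FB-dominant spots, or 1029 CPM (95% Poisson interval 988 to 1071), against 547 (532 to 562), and Pdgfra had 127 UMIs, or 54.0 CPM (45.0 to 64.3), against 26.8 (23.5 to 30.4). The intervals cover counting error only.

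**Figure D1:**
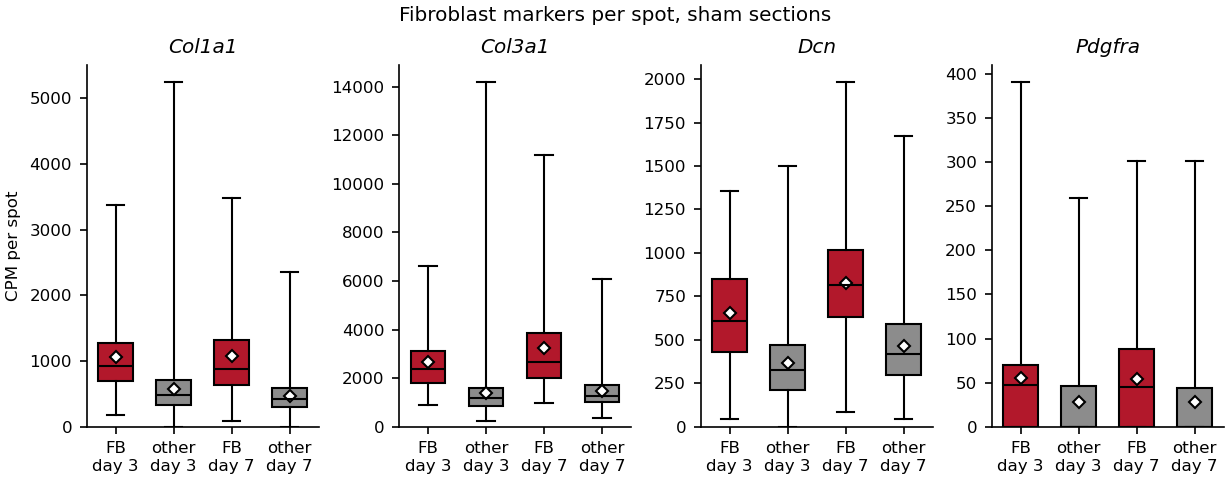
Expression of Col1a1, Col3a1, Dcn and Pdgfra per spot (CPM, linear axes) in FB-dominant (red) and other (grey) spots of the sham sections, with boxes from the lower to the upper quartile, a line at the median, a diamond at the mean and whiskers to the lowest and highest spot. Each marker had its higher mean in FB-dominant spots of both days, for example 1060 against 579 CPM for Col1a1 at day 3, while the whiskers of all groups overlapped.

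In the plot of the markers per spot the boxes of FB-dominant and other spots were shifted, but no marker separated them. Cardiomyocyte transcripts were abundant in FB-dominant spots too. The summed level of the 15 ventricular cardiomyocyte markers had a median of 69474 CPM per FB-dominant spot at day 3, against 74186 in other spots, and 69828 against 78651 at day 7. The summed level of the 15 fibroblast identity genes had medians of 7101 against 4053 CPM and 7140 against 3898 CPM. In such bulk regions more fibroblasts and more RNA per fibroblast cannot be told apart.

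FB-dominant spots made up over 20% of each sham section, and in both they lay nearer to the centre than the other spots. They made up 22.5% of the spots at day 3 (exact 95% binomial interval 19.02 to 26.2%) and 27.7% at day 7 (24.9 to 30.7%), with overlapping intervals. Their median distance from the centre of the section was 6.84 spot spacings at day 3, against 9.03 for other spots, and 10.1 against 12.3 at day 7. Edge spots, those with fewer than 6 neighbours, were rare among them at day 3. There, 9 spots or 7.38% were at an edge (3.43 to 13.5%), compared with 77 or 18.3% of other spots (14.7 to 22.3%). At day 7 the shares were 11.3% (7.74 to 15.7%) and 13.3% (10.8 to 16.01%), with overlapping intervals. Spots of 1 section are not replicates, and these intervals cover counting error only.

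The day 7 section was lopsided. On its left side 34.6% of spots were FB-dominant and on its right side 20.8%, and the mean position of FB-dominant spots lay 2.75 spacings to the left of that of all spots. At day 3 the shares were 21.9% and 23.1%. The labels do not say which side of a section is which ventricle.

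**Figure D2:**
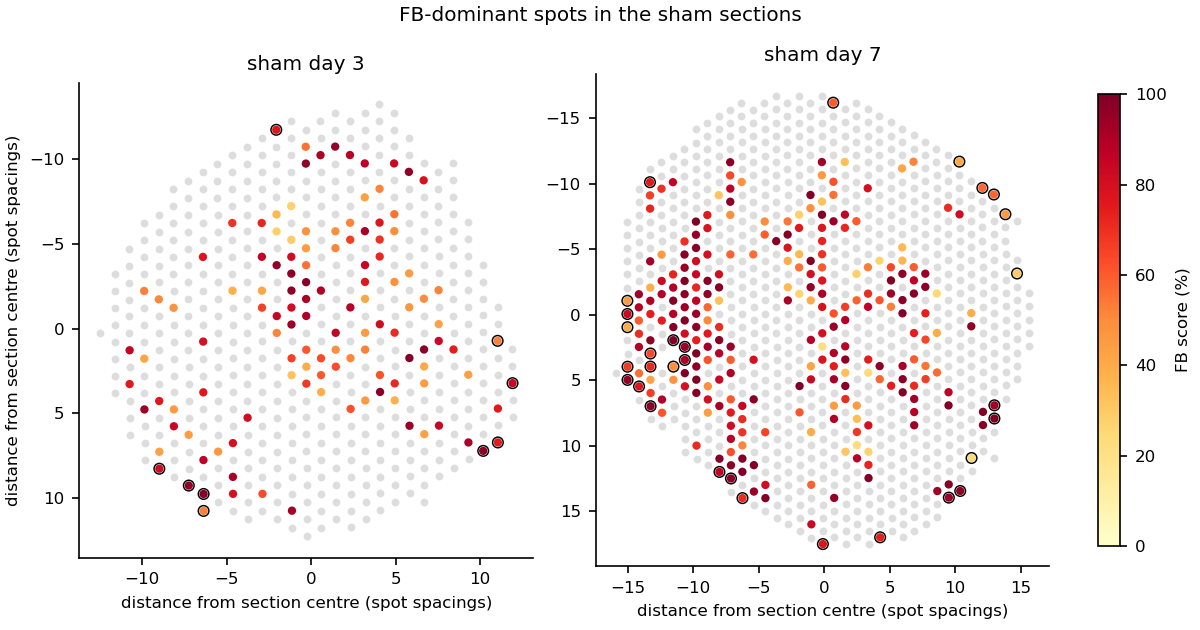
Position of the FB-dominant spots in the sham sections, coloured by FB score (%), over the other spots (grey), with distances in spot spacings from the centre of the section and black rings around the 9 and 30 FB-dominant spots with fewer than 6 neighbours. The day 7 section shows a dense group on the left and a scattered one around the centre, and the day 3 section shows smaller groups, mostly in the interior.

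FB-dominant spots adjoined each other more at day 7. Of the neighbours of an FB-dominant spot, 34.8% were FB-dominant at day 3 (248 of 713) and 52.3% at day 7 (808 of 1544), whereas of the neighbours of other spots 19.7% and 18.5% were. Moran's I of the FB score, which is 0 without spatial clustering and 1 when neighbours are alike, was 0.251 at day 3 and 0.430 at day 7. The day 3 spots fell into 33 groups of touching spots, the largest of 23, 16 and 14 spots, with 14 isolated spots. The day 7 spots fell into 35 groups, the largest of 101, 90 and 16 spots, with 20 isolated spots. Groups of 10 or more held 53 of 122 spots at day 3 and 207 of 266 at day 7.

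The type with the next highest score also differed in frequency between the days. In FB-dominant spots of day 3 it was most often CM1, the most frequent cardiomyocyte state of these sections, in 37 spots, and endocardial (EndoEC) in 33, followed by the cardiomyocyte state CM4 in 15. At day 7 it was endocardial in 61 spots, macrophage in 61, CM1 in 41 and CM4 in 30. The neighbours that were not FB-dominant had an excess of endocardial spots. Endocardial-dominant spots were 17.4% of those neighbours at day 3 and 12.6% at day 7, against 11.4% and 6.20% of all spots that were not FB-dominant. Macrophage-dominant spots were 7.74% against 6.18% at day 3 and 16.03% against 10.1% at day 7. CM1-dominant spots were less frequent beside FB-dominant spots, at 52.5% against 58.0% and 39.8% against 55.2%, and endothelial (EC) spots were 4.73% against 7.13% and 7.34% against 9.94%.

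All genes were then compared between FB-dominant and other spots. Of 12628 genes whose mean reached 1 CPM in FB-dominant or other spots of each section, 84 were at least 2-fold higher in FB-dominant spots of both sections (0.665% of genes) and 0 were at least 2-fold lower in both (0%). Of the 84 genes, 25 belonged to a gene list used here and 59 to none. The median log2 ratio of all genes was 0.12 at day 3 and 0.08 at day 7, and values below are read against it. By sign alone 6130 genes were higher (48.5%) and 2094 lower (16.6%) in both sections, shares against which the lists are read, and with median-of-ratios scaling in place of CPM the split was 3593 to 4402, so the sign of small differences depended on the scaling.

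The 12 largest ratios among genes at 50 CPM or more in FB-dominant spots of both sections belonged to 4 kinds of gene. The contractile genes of smooth muscle were Myh11, the smooth muscle myosin heavy chain, with log2 ratios of 3.09 at day 3 and 2.37 at day 7, Tagln, which encodes an actin-binding protein (2.27 and 2.16), and Acta2, smooth muscle actin (1.06 and 1.20). Elastic fibre genes were Eln, the elastin precursor (1.99 and 2.19), Fbln5, which helps assemble elastin (2.08 and 1.86), Mfap4 (1.55 and 1.54) and Fbln2 (1.41 and 1.30). The matrix regulators were Mgp, an inhibitor of calcification (1.42 and 1.41), Bgn, the proteoglycan biglycan (1.14 and 1.21), and Postn, periostin (1.03 and 1.17). The collagen processing enzymes were Adamts2, which cleaves procollagen (1.03 and 1.29), and Loxl1, a cross-linker of elastin (1.03 and 1.07). Of the 12 genes, 11 were also higher in FB-dominant than in other spots of all 3 MI sections, and Myh11 was not in MI day 3, where it had 11.9 against 14.5 CPM.

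Genes that were lower in FB-dominant spots differed by much less. Among genes at 50 CPM or more in other spots, the lowest ratios were those of Aqp1, a water channel of capillary endothelium, at −0.42 and −0.50, and Aplnr, the apelin receptor, at −0.51 and −0.37. Then came Myh7b, Cavin4, Cacna1c, a calcium channel subunit of cardiomyocytes, Tmem88, Hba-a2 and Lmod3, all between −0.27 and −0.43. With median-of-ratios scaling Aplnr was at −0.57 as the mean of both days. Of the 8 genes, 7 were lower in FB-dominant spots of all 3 MI sections as well.

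Collagen genes were higher in FB-dominant spots. All 8 fibrillar collagen genes that passed the minimum were higher in FB-dominant spots of both sections, with median log2 ratios of 0.90 and 0.98, and 1 of them, Col11a1, was at least 2-fold higher in both, at 8.42 against 3.28 CPM and 6.26 against 1.93. Col1a2, the partner chain of Col1a1, had 887 against 458 CPM at day 3 and 1010 against 462 at day 7. Of 9 other collagens, 9 were higher, with medians of 0.57 and 0.77, among them Col6a2 (229 against 152 and 240 against 158 CPM), a chain of the beaded filament collagen VI. Collagen processing genes gave 19 of 20 higher and medians of 0.46 and 0.51. Serpinh1, the chaperone of procollagen, had 546 against 437 and 497 against 391 CPM. Basement membrane genes, which muscle and endothelium also make, were higher in 13 of 13 but only by medians of 0.28 and 0.27, as for Col4a1 with 919 against 825 CPM at day 3.

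Elastic fibre and microfibril genes were higher in 15 of 16, with medians of 0.94 and 0.97, and 4 were at least 2-fold higher in both sections. Fbn1, the main microfibril protein, had 310 against 151 CPM at day 3 and 363 against 194 at day 7. The small leucine-rich proteoglycans were higher in 7 of 7 (medians 0.84 and 0.84), including Lum at 281 against 138 and 362 against 203 CPM. Matricellular proteins, which signal from the matrix without building it, were higher in 13 of 13 with medians of 0.84 and 0.87. Postn had 1269 against 623 CPM at day 3 and 1069 against 476 at day 7, Sparc had 1450 against 1032 and 1768 against 1169, and fibronectin (Fn1) had 600 against 359 and 621 against 362. Matrix proteases and their inhibitors were higher in 11 of 13 and lower in 1, with medians of 0.59 and 0.75. Mmp2, a gelatinase, had 222 against 114 and 228 against 120 CPM.

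Ligands and receptors of growth factors differed less. Of 19 ligand genes 16 were higher in both sections, with medians of 0.36 and 0.36. Among them was Igf2, the fetal insulin-like growth factor (676 against 512 CPM at day 3 and 282 against 207 at day 7). The heparin-binding factors Ptn and Mdk had ratios near 2-fold, with 203 against 101 and 159 against 83.5 CPM at day 3. Of 14 receptors 13 were higher and 1 lower, with medians of 0.25 and 0.40. Axl, a receptor tyrosine kinase of stromal cells, had 124 against 60.4 and 109 against 68.3 CPM, while Igf2r, the clearance receptor of Igf2, differed little at 233 against 220 and 119 against 114.

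Markers of other cell types were mixed. The 10 myofibroblast and contractile genes were all higher, 7 of them at least 2-fold in both sections, with the highest medians of any list, 1.15 and 1.25. Endocardial markers were higher in 6 of 7, with medians of 0.84 and 1.03. Vwf had 36.0 against 13.2 CPM at day 3 and 47.1 against 17.9 at day 7, and Npr3, an endocardial receptor, had 22.9 against 12.3 and 10.1 against 3.29. Valve interstitial markers were higher in 7 of 7 (medians 0.60 and 0.87), a list that shares Postn and Vcan with the matricellular proteins and Cytl1 with the endocardial list. Atrial cardiomyocyte markers were higher in 6 of 6 (medians 0.48 and 0.51), Nppa, the atrial natriuretic peptide, being at 750 against 570 and 402 against 278 CPM. Macrophage markers were higher in 12 of 14 with medians of 0.44 and 0.25, and their summed level was 231 against 176 CPM at day 3 and 221 against 172 at day 7. Mural markers were higher in 7 of 12 and lower in 3. Epicardial markers were higher in 3 of 6 and lower in 1, near the shares of all genes, and the epicardial marker Msln was at 0.457 and 0.170 CPM in FB-dominant spots.

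Ventricular muscle and energy genes were lower by little. Of 15 ventricular cardiomyocyte markers 14 were lower in both sections (medians −0.11 and −0.19). Myh6, the adult cardiac myosin heavy chain, had 5988 against 6390 CPM at day 3 and 7382 against 8452 at day 7. All 20 oxidative phosphorylation genes were lower (medians −0.10 and −0.14), as were 15 of 16 genes of fatty acid use (−0.20 and −0.19). With median-of-ratios scaling the median of all genes was −0.01 and −0.02 in place of 0.12 and 0.08. Of the immature cardiomyocyte genes 5 of 10 were higher and 2 lower in both sections (medians 0.11 and 0.11), shares near those of all genes. Endothelial markers were mixed, with 3 of 12 higher and 5 lower. Of 16 cell cycle genes 4 were higher and 1 lower, with medians of −0.01 and 0.06, and Mki67 had 81.1 against 61.9 and 60.2 against 54.0 CPM. Imprinted growth genes were higher in 11 of 13, with medians of 0.44 and 0.41.

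A large part of the Myh11 of FB-dominant spots lay in few of them. In each sham section 9 of the 10 spots highest in Myh11 were FB-dominant. They ranged with the other high spot from 290.5 to 836 CPM at day 3 and from 449 to 894 at day 7, while Myh11 was above 0 in 19.7% of FB-dominant spots at day 3 and 36.1% at day 7 and its median was 0 in both. The FB-dominant spots among these 10 held 74.1% of all Myh11 of the FB-dominant spots at day 3 and 39.0% at day 7. They also held 44.9% and 32.2% of Eln, 56.3% and 41.1% of Tagln and 26.9% and 22.0% of Acta2. The mean Eln of the 10 spots was 2447 and 6102 CPM, against 248 and 494 in the remaining FB-dominant spots. Their Dcn, at 552 and 853 CPM, was close to the 657 and 827 of the remaining ones.

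**Figure D3:**
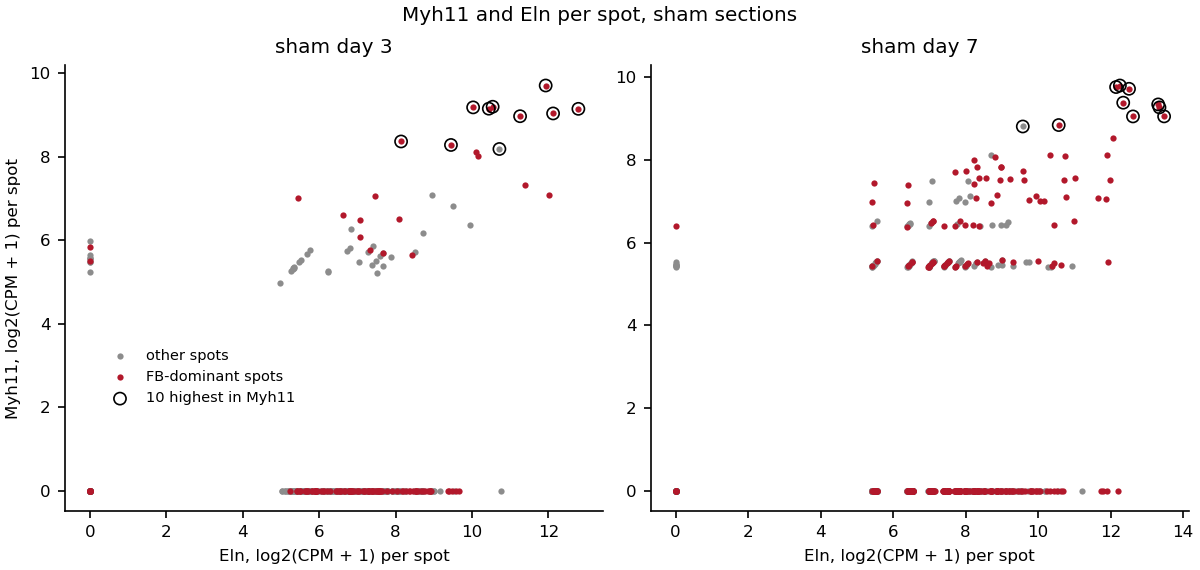
Myh11 against Eln in every kept spot of the sham sections, both as log2(CPM + 1), with FB-dominant spots in red, other spots in grey and black circles around the 10 spots highest in Myh11. In each section 9 of the 10 circled spots are red and sit at the upper right, while most spots of both kinds lie on the line where Myh11 is 0.

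The plot of Myh11 against Eln shows this small group apart from the rest. Myh11 is a defining gene of smooth muscle. Over the 10 spots the score for pericytes and smooth muscle (Pericyte/SMC) had a median of 9.50% and a highest value of 36.8% at day 3, above the section's mean of 1.49% in FB-dominant and 1.42% in other spots. At day 7 it had a median of 0% and a highest value of 2.57%, against means of 2.37% and 2.94%. Only 6 spots of day 3 and 16 of day 7 were Pericyte/SMC-dominant. Their mean Myh11 was 32.5 and 58.3 CPM, against 510 and 652 in the 10 spots, and their Tagln was 41.3 and 24.5 against 856 and 1225. Pericyte markers were mixed. Kcnj8, a pericyte channel, was higher in the Pericyte/SMC-dominant spots, at 78.8 and 116 CPM against 41.5 and 23.1, while Rgs5 was at 406 against 541 CPM at day 3 and at 503 against 465 at day 7. In MI day 7, 7 and 8 of the 10 highest spots were FB-dominant, and in MI day 3 none was.

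Without the 10 spots, which were picked by Myh11 so that its ratio had to drop, the log2 ratios of Myh11 were still 1.49 at day 3 and 1.80 at day 7. Those of Tagln were 1.28 and 1.53, those of Eln 1.30 and 1.68 and those of Acta2 0.73 and 0.91. The number of genes at least 2-fold higher in both sections fell from 84 to 42. The same spots held a smaller part of the fibroblast markers, 9.30% and 7.82% of the Col1a1 and 6.72% and 3.68% of the Dcn of FB-dominant spots.

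Expression was then followed outward from the FB-dominant spots, by the distance of a spot to the nearest of them. Matrix genes had their largest drop within the first spacing. As FB-dominant spots were chosen by a score computed from expression, this first step is partly set by the choice and is no test. Col3a1 went from 2668 CPM in FB-dominant spots of day 3 to 1529 at 1 spacing, 1171 at 2, 1314 at 3 and 1228 at 4 or more. At day 7 it went from 3237 to 1629, 1224, 1229 and 1432. Eln went from 416 to 122 and 77.0 CPM over the same first steps at day 3 and from 704 to 184 and 112 at day 7. Dcn continued to decline at day 3, with 653, 406, 323, 293 and 252 CPM. The spots next to FB-dominant ones still had a mean FB score of 7.64% and 7.72%, compared with 2.03% and 2.93% at 2 spacings.

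**Figure D4:**
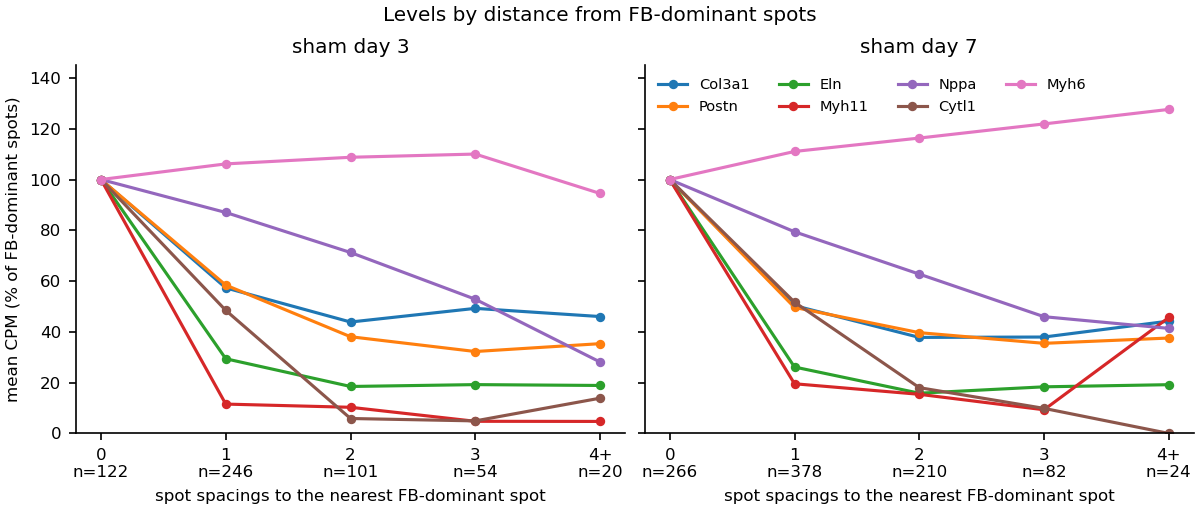
Mean CPM of Col3a1, Postn, Eln, Myh11, Nppa, Cytl1 and Myh6, as percent of the level in FB-dominant spots, against the distance to the nearest FB-dominant spot in spot spacings, with the number of spots under each distance. Matrix genes drop at 1 spacing, a step partly set by how FB-dominant spots were chosen. Nppa declines over all distances, and Myh6 is higher with each step at day 7, from 7382 to 9420 CPM.

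The plot of levels by distance shows different courses for the endocardial and atrial genes. Nppa declined step by step, from 750 to 653, 534, 396 and 211 CPM at day 3 and from 402 to 319, 252, 185 and 166 at day 7. Cytl1 had 16.5 CPM in FB-dominant spots, 7.97 at 1 spacing and 0.968 at 2 at day 3, and 10.6, 5.46 and 1.90 at day 7. Plvap, of fenestrated endothelium, changed little at the first step of day 3, from 24.3 to 21.9 CPM, and was at 7.85 at 2 spacings. Myh6 went the other way at day 7, from 7382 to 8198, 8587, 8998 and 9420 CPM, and at day 3 it rose from 5988 to 6588 at 3 spacings and was 5659 at 4 or more. The farthest group held 20 spots at day 3 and 24 at day 7, and Myh11 stood at 26.7 CPM there at day 7.

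The FB-dominant spots were not alike. When they were split into 3 equal groups by FB score, the matrix genes increased with the score, which was computed from them and is therefore no test. Col1a1 went from 912 to 1057 and 1211 CPM over the 3 groups at day 3 and from 762 to 1161 and 1312 at day 7. Of the smooth muscle transcripts, Tagln went from 28.7 to 110 and 210 CPM at day 3, while at day 7 it was lowest in the first group and level between the others, at 53.7, 130 and 129. Myh11 was at 7.22, 51.3 and 101 CPM at day 3 and at 33.8, 81.9 and 59.9 at day 7. Nppa ran against it at day 3, from 1168 to 612 and 466 CPM, and with it at day 7, from 307 to 412 and 487. Edge spots were 0%, 12.5% and 9.76% of the groups at day 3 and 12.4%, 10.2% and 11.2% at day 7.

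At day 7 the 2 largest groups of touching spots differed in their matrix. The group of 101 spots lay with its mean 10.2 spacings left of the centre and had 15 edge spots, and the group of 90 spots lay near the centre with 0 edge spots. The left group had more fibrillar collagen and elastin, with Col1a1 at 1296 against 829 CPM, Col3a1 at 4055 against 2473, Eln at 740 against 296 and Acta2 at 740 against 351. Vwf stood at 63.4 against 22.5 CPM. The central group was higher in Dcn (907 against 761 CPM), in Mfap5, a microfibril protein (305 against 195), and in Pi16, a marker of adventitial fibroblasts (82.2 against 44.7). The group of 16 spots, right of the centre, was like the central one, with Col1a1 at 685, Eln at 210, Pi16 at 81.4 and Mfap5 at 403 CPM. The median FB score was 85.3% in the left group, 72.7% in the central one and 74.3% in the group of 16, and Col1a1, Col3a1 and Eln were also higher in FB-dominant spots of higher score. The groups are parts of 1 section, and no test was made.

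At day 3 the 3 largest groups held no edge spot. Their Col3a1 was 2041, 3016 and 3471 CPM in the groups of 23, 16 and 14 spots, their Mfap5 was 259, 141 and 131, and their Nppa was 710, 868 and 1381. The group lowest in Col3a1 was again the highest in Mfap5. Isolated spots were different. They lay at an edge in 21.4% of cases at day 3 and 35% at day 7, and at day 3 they had a mean Myh11 of 84.1 CPM, against 3.25 in groups of 10 or more, while at day 7 it was 53.7 against 41.0. Their Pdgfra was 25.8 against 56.1 CPM at day 3 and 33.0 against 56.7 at day 7.

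Edge and interior FB-dominant spots were compared in both sections, over 9 and 30 edge spots. Haemoglobin genes led those with the higher mean at the edge, Hba-a1 with 4938 against 835 CPM at day 3 and 6580 against 1312 at day 7, together with Hbb-bt, Hbb-bs and Hba-a2. Then came Eln, at 1097 against 362 and 1325 against 625 CPM, and Tagln, at 335 against 98.7 and 182 against 94.3. Lower at the edge were Nppa (164 against 797 and 154 against 433 CPM), the guidance cue Ntn1 (71.9 against 155 and 39.4 against 93.7), Dlgap4, Mfap5 (61.1 against 197 and 149 against 257) and Atp11a. Among other spots, haemoglobin genes were also higher and Nppa and Ntn1 also lower at the edge of both sections. Few spots carried the blood signal. The summed level of the 8 blood genes had a mean of 12525 CPM over the 9 edge spots and 2834 in the interior at day 3, but 1 edge spot had 85002 CPM, the mean without it was 3466, and the medians of 1751 and 1691 differed little. At day 7 the means were 20251 and 4553 CPM and the medians 3991 and 3160. The highest edge spots had 231505 and 112524 CPM, and the edge mean without the highest was 12966. Eln was also higher at the edge by its medians, 404 against 132 and 465 against 227 CPM, and Nppa lower, at 80.7 against 663 and 84.5 against 284.

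The sham sections of day 7 and day 3 were then compared within FB-dominant spots. With 1 section a day there is no replicate check and no p-value. Of 13041 genes, 205 were at least 2-fold higher at day 7 (1.57%) and 355 at least 2-fold lower (2.72%). The median log2 ratio of all genes was −0.15 in FB-dominant and −0.12 in other spots, and with median-of-ratios scaling, which brought the median to 0.00, the counts were 275 and 221. By sign alone 4453 genes were higher at day 7 (34.1%) and 8588 lower (65.9%), and the lists are read against these shares. Of the 205 and 355 genes, 150 (73.2%) and 302 (85.1%) had the same sign in the other spots, against 58.9% and 79.4% of all genes higher and lower. In FB-dominant spots of both MI day 7 sections against MI day 3, 107 (52.2%) and 207 (58.3%) had the same sign, against 38.8% and 54.9% of all genes, so for the lower genes the share was close to that of all genes.

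At 50 CPM or more in FB-dominant spots of either day, 15 genes were at least 2-fold higher and 22 at least 2-fold lower at day 7, and the 10 of largest change in each direction are described. Tuba8, an alpha-tubulin, went from 11.7 to 51.5 CPM in FB-dominant spots (log2 ratio 2.05) and Casq1, calsequestrin, from 94.5 to 250 (1.40). Tuba4a, Ckmt2, the mitochondrial creatine kinase of muscle (269 to 637 CPM), Acta1, skeletal actin (78.0 to 174), the chaperone Hspb8, the ketone body enzyme Oxct1 and the antisense transcript Gm15417 were also among the 10. Gm15417 is annotated as antisense, and its reads cannot be told apart here from those of the gene it overlaps. The 2 matrix or fibroblast genes among them were Pi16, from 22.0 to 61.9 CPM (1.45), and Mfap4, from 87.6 to 210 (1.25). All 10 were higher in other spots too, Pi16 at 8.79 and 22.1 CPM and Mfap4 at 29.3 and 71.6.

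Among the 10 lower genes, Acot1, a thioesterase of fatty acyl-CoA, went from 136 to 25.3 CPM (−2.39), and Scd4, Angptl4 and Pdk4 also act in lipid and fuel use. Other genes of the 10 were Dlk1, an imprinted ligand of the Notch family (63.1 to 12.2 CPM, −2.28), Plagl1, an imprinted transcription factor (108 to 35.6, −1.57), Cited1, Myl4, the atrial and fetal light chain, and Myh7, the fetal myosin heavy chain (1973 to 496, −1.99). All 10 were lower in other spots as well. In the MI sections 7 of the 10 higher and 8 of the 10 lower genes had the same sign in both replicates.

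**Figure D5:**
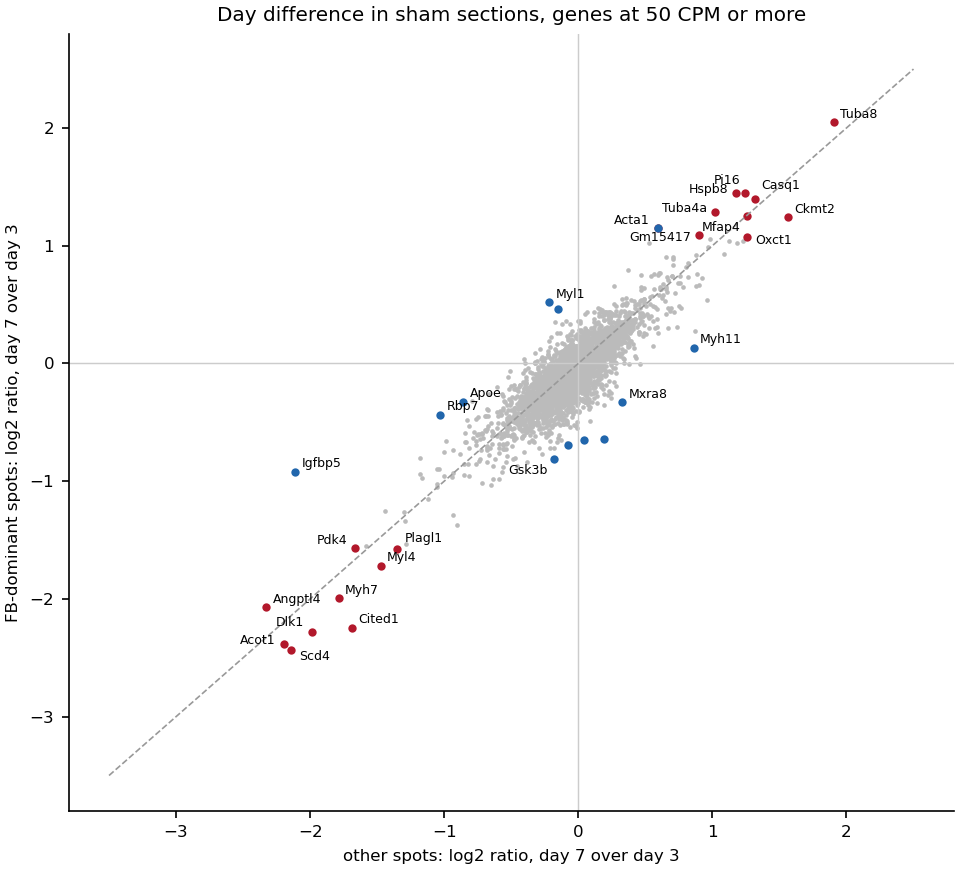
Log2 ratio of day 7 over day 3 in FB-dominant spots (vertical) against that in other spots (horizontal) of the sham sections, for genes at 50 CPM or more, with the genes of largest change in FB-dominant spots that the text names in red, the 12 with the largest departure between both kinds of spots in blue and a dashed line of equal ratios. Most red genes lie near the dashed line, as Acot1 at −2.39 and Tuba8 at 2.05, while Acta1, which belongs to both sets, and Igfbp5 lie above it.

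By role, the matrix lists of FB-dominant spots had medians between −0.22 and 0.34, against −0.15 for all genes, of which 34.1% were higher at day 7. Fibroblast identity genes were higher in 11 of 15, with a median of 0.06, fibrillar collagens in 5 of 9 (0.02), collagen processing in 10 of 20 (0.00), other collagens in 8 of 10, 2 of them at least 2-fold (0.31), elastic fibre genes in 11 of 16 (0.17) and matricellular proteins in 4 of 13 (−0.22). The small proteoglycans were higher in 7 of 7, with a median of 0.34. Cell cycle genes were lower in 16 of 16 (median −0.44), Pcna from 204 to 126 and Top2a from 74.5 to 43.0 CPM. Imprinted growth genes were lower in 13 of 13, 4 of them at least 2-fold, with a median of −0.70. Igf2 went from 676 to 282 CPM and H19, the non-coding RNA of the same locus on chromosome 7, from 767 to 321. Oxidative phosphorylation genes were higher in 19 of 20 (0.23), and macrophage genes were lower in 10 of 14 (−0.34), a share near the 65.9% of all genes. The medians of the other spots were −0.49 for cell cycle genes, −0.76 for imprinted genes and 0.27 for oxidative phosphorylation, close to those of FB-dominant spots.

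The plot of both day ratios picks out few genes that departed from the common course. Igfbp5, a binding protein of insulin-like growth factors, was lower at day 7 in both kinds of spots but less so in FB-dominant ones, at 143 and 75.4 CPM against 182 and 41.3. Myl1, a light chain of fast muscle, went from 34.8 to 50.4 in FB-dominant spots and from 16.6 to 14.1 in other spots. Apoe went from 238 to 190 and from 173 to 95.02, and Ppp2r2a, Rbp7 and Acta1 departed in the same direction. On the other side, with a lower day ratio in FB-dominant than in other spots, were Myh11, with 53.2 and 58.5 CPM in FB-dominant spots and 5.35 and 10.5 in other spots, and Mxra8, a matrix remodelling gene, which went from 81.8 to 64.9 and from 32.7 to 41.2. Ptpn12, Plekhh1, Gsk3b and Khdrbs3 also had a lower day ratio in FB-dominant spots.

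The only estimate of the day difference with replication used FB-dominant spots of all 5 sections, adjusted for the operation, which left 2 residual degrees of freedom. It shares the sham sections with the values above. The 2 MI day 7 replicates differed in Xist and Ddx3y, and sex was not a covariate. With limma and a Benjamini-Hochberg threshold of 0.05, 17 of 13266 genes rose from day 3 to day 7 (0.128%) and 12 fell (0.0905%), with a median of −0.16 over all genes. The lowest adjusted p-values (limma) among genes that rose were those of Tuba4a (log2 change 1.47, SE 0.16, adjusted p = 0.0031), Tuba8 (2.54), Pi16 (1.41, adjusted p = 0.0053), Ckmt2 (1.66) and Mhrt, a cardiac long non-coding RNA (2.10). Mhrt is annotated as antisense, like Gm15417. Pi16 was at 22.0 and 61.9 CPM in sham and at 51.9, 146 and 130 CPM in MI day 3 and the MI day 7 replicates. Among genes that fell were Myl7, the atrial light chain (−4.003), Myl4 (−2.10), Pdk4 (−1.93) and Acot1 (−1.88). Of the gene lists, 2 of 13 imprinted genes fell (Igf2r and Plagl1), 2 of 6 atrial markers (Myl4 and Myl7) and 2 of 16 genes of fatty acid use (Pdk4 among them), and none of the 15 fibroblast identity genes, 9 fibrillar collagens or 16 elastic fibre genes passed the test. MI day 3 stood apart in the atrial markers, whose summed level in FB-dominant spots was 16697 CPM there and between 495 and 3692 in the other 4 sections. Without MI day 3 Myl7 was at −3.64 with an adjusted p (limma) of 0.0088, and Myl4 at −1.72 with one of 0.067. At an unadjusted p under 0.05 there were 516 and 1535 genes. The counts higher and lower were 0 and 2 without MI day 7 replicate 2 (311 and 1095 at an unadjusted p under 0.05), 4 and 7 without MI day 3, 32 and 40 without MI day 7 replicate 1, 224 and 337 without sham day 3, and 243 and 399 without sham day 7, so the calls depend on which sections are included.

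A test of the difference between FB-dominant and other spots asked which genes changed with day in 1 kind of spot more than in the other. By limma, 4 of 13422 genes had a higher day difference in FB-dominant spots (0.0298%), namely Igfbp5 (0.95, SE 0.14, adjusted p = 0.0051), Acta1 (1.06), Spp1 and Slc19a2. A lower one was found for 2 genes (0.0149%), S100a8 and S100a9, alarmins of neutrophils. Spp1 had 0 UMIs in FB-dominant spots of sham day 3, which allows up to 1.28 CPM, and 0.512 CPM at sham day 7. Other spots of sham day 3 had 23 UMIs of it, or 2.54 CPM, so its sham values rest on few counts. The test used the difference from other spots within each section, so levels in FB-dominant spots alone do not show which sections carry a call. In FB-dominant spots of MI, Spp1 was at 217 CPM at day 3 and 3.87 and 32.2 at day 7. S100a8 was at 16.3 and 2.49 CPM in sham and 208, 4.93 and 28.6 in MI. Without MI day 3 the counts were 2 and 0, without MI day 7 replicate 1 they were 31 and 5, without sham day 3 563 and 91, and without sham day 7 552 and 92.

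FB-dominant spots of sham hearts were also set against those of infarcted hearts. MI sections had fewer of them, 22 spots or 6.03% at day 3 and 94 and 94 spots, 13.7% and 11.96%, at day 7. The mean share was 10.5% ± 4.01 (SD, n = 3) in MI and 25.1% ± 3.71 (SD, n = 2) in sham, a difference of −14.5 points with an exact permutation p of 0.2 (two-sided, adjusted p = 0.3 over 3 measures), the smallest that 10 splits allow. The share of edge spots among FB-dominant spots was 9.93% ± 12.1 in MI and 9.33% ± 2.76 in sham (exact permutation p = 1), and Moran's I of the FB score was 0.483 ± 0.0574 and 0.341 ± 0.126 (exact permutation p = 0.2, adjusted p = 0.3). The smallest share and the smallest number of spots were those of MI day 3.

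Some matrix genes and most macrophage markers were higher in FB-dominant spots of MI than in those of sham, though no call held without MI day 7 replicate 2. With day as a covariate, limma with Benjamini-Hochberg adjustment called 78 of 13266 genes higher in MI (0.588%) and 1 lower (0.00754%). Among those with the lowest adjusted p-values were Adamtsl2, which regulates microfibrils (log2 change 2.65, SE 0.29, limma adjusted p = 0.0059), Fbln1, fibulin 1 (1.89), the transcript AI506816 (4.08) and Fmod, fibromodulin. Adamtsl2 was at 17.3 and 16.6 CPM in sham and at 200.4, 57.7 and 88.0 in MI day 3 and the MI day 7 replicates, so the groups did not overlap. Fmod had 0 UMIs in FB-dominant spots of sham day 3, which allows up to 1.28 CPM, and 0.859 CPM at sham day 7, against 18.7, 11.3 and 28.4 in MI. The gene called lower was Tuba4a (−0.89). Of the lists, 9 of 14 macrophage markers were called higher, 5 of 16 elastic fibre genes, 3 of 15 fibroblast identity genes and 3 of 8 small proteoglycans. Matricellular proteins had 3 of 15, matrix proteases and inhibitors 3 of 13 and other collagens 2 of 10. Collagen processing genes and growth factor ligands had 1 of 20 each, imprinted growth genes 1 of 13 and valve interstitial markers 1 of 8. None of 13 basement membrane genes and no fibrillar collagen passed, Col1a1 being at 1.22 (limma adjusted p = 0.093). Over all 14 macrophage markers the summed level was 231 and 221 CPM in sham and 2803, 405 and 797 in MI. Their part in the other calls was not tested. The counts higher and lower were 0 and 0 without MI day 7 replicate 2 (737 and 397 at an unadjusted p under 0.05), 13 and 1 without sham day 3, 15 and 1 without MI day 3, 483 and 217 without sham day 7, and 539 and 98 without MI day 7 replicate 1.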

How the data were processed

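Per the labels and the methods of the study, Visium libraries of 5 sections were processed with Space Ranger on mm10 (GRCm38) and normalised with sctransform, and type scores were transferred from single-nucleus data. The authors deposited raw UMI counts for sham day 3 and sctransform-corrected counts, used here as a score, for the other 4 sections. The deposited metadata gave UMI totals, spot positions in pixels (another unit) and 11 type scores, each a fraction (printed as percent). Only 1 table being raw, count models were not applied, and spots were scaled to CPM from the deposited values.

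Fits used limma 3.58.1 (R 4.3.3, trend, checked on simulated sections) on log2(mean CPM + 1), which understates changes of low genes, for genes at 1 CPM or more in at least 2 columns. Neighbours lay within 1.25 spacings, and ring 2 within 2.25. Genes were named by size of ratio at 50 CPM or more, or by lowest adjusted p, 5 each way. Alternatives were other scaling, pseudocounts, filters, spot definitions, a sctransform-corrected sham day 3 table, and leaving out each section. Members and gene lists were chosen with earlier results of these data known. Gene positions come from a GRCm38 annotation. The labels do not name the animals, so p-values measure the spread between sections. Some genes that these rules pick are not reported here.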

Additional observations from a re-analysis of the deposited data

Results flagged for a closer look

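In FB-dominant spots 3 of the genes with the largest day difference in sham moved the opposite way in both MI day 7 sections against MI day 3. Casq1 had a log2 ratio of 1.40 in sham and of −1.11 and −0.25 in MI. Mfap4 had 1.25 in sham and −0.49 and −0.07 in MI, where its level was already 675 CPM at day 3, and the second of these was above the median MI ratio of all genes, −0.16. Dlk1 had −2.28 in sham and 1.29 and 0.36 in MI, where it started from 11.9 CPM at day 3, a level like the 12.2 CPM of sham day 7. With 1 sham section a day, the difference between sham and MI was not tested for these 3 genes.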

How the results depend on the processing

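No share changed direction under the alternatives run for it. The same held for genes picked by their ratio to other spots, by their day ratio or by adjusted p. Other genes named in the text, such as list members with small ratios, are not covered by this. Median-of-ratios scaling turned the balance of higher and lower genes, from 6130 and 2094 to 3593 and 4402 in FB-dominant against other spots. It also turned 205 and 355 genes 2-fold higher and lower at day 7 to 275 and 221. The share of FB-dominant spots stayed lower in MI with an FB score of at least 0.5, with at least 5000 UMIs and with each section left out, and 2 alternatives were chosen after seeing the data, the one without the 10 spots highest in Myh11 and the one of spots with 6 neighbours only. Genes 2-fold higher in FB-dominant spots (84) became 55 with median-of-ratios scaling, 23 with a pseudocount of 5, 49 with genes at 10 CPM or more and 42 without the Myh11 spots. Genes 2-fold lower (0) became 2 without mitochondrial and haemoglobin genes and 1 with median-of-ratios scaling, an FB score of at least 0.5, no Myh11 spots or 6 neighbours only. Genes 2-fold higher at day 7 (205) became 26 with a pseudocount of 5, 50 at 10 CPM or more and 319 with an FB score of at least 0.5, and those lower (355) became 221 with median-of-ratios scaling, 48 and 124 with the first 2 of these settings. A sctransform-corrected sham day 3 table gave 70 and 0 genes against other spots, and 220 and 260 at day 7. By sign alone it gave 5301 higher and 2602 lower against other spots. The median day ratio of all genes in FB-dominant spots was then −0.09.

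In the limma fits, genes that rose with day (17) became 32 with median-of-ratios scaling and 27 without mitochondrial and haemoglobin genes, and those that fell (12) became 22 with an FB score of at least 0.5. Leaving out 1 section gave 0 to 243 and 2 to 399. Genes higher in MI (78) became 164 with an FB score of at least 0.5 and 30 with a pseudocount of 5, and 0 to 539 with 1 section left out. The 1 gene lower in MI became 5 with median-of-ratios scaling, 6 with summed spots, no mitochondrial and haemoglobin genes or an FB score of at least 0.5, 2 with a sctransform-corrected sham day 3 or no filter, 0 with a pseudocount of 5, and 0 to 217 with 1 section left out. For the difference between FB-dominant and other spots, the 4 genes became 8 without mitochondrial and haemoglobin genes and 7 with a pseudocount of 5, and 2 to 563 and 0 to 92 with 1 section left out. In each of these fits a lone section is assumed to vary like the other groups. The cause of these shifts was not tested.

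The FB-dominant share of neighbours was 26.02% at day 3 and 48.0% at day 7 with an FB score of at least 0.5, and 46.7% at day 7 over rings 1 and 2. Among single genes 33 calls were lost, most of them without MI day 7 replicate 2 or without MI day 3. Sections of different days or operations could not be paired. The fit of the difference between FB-dominant and other spots paired them within each section. With 1 section per group in 3 of the 4 groups and 2 residual degrees of freedom, small differences could not be detected, and values near 1 CPM rest on few counts.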
